A study of Mus musculus with 8 samples.

Results

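The genes described here encode the proteins of the mitochondrial ribosome. They were chosen as the genes whose symbol on the array platform starts with Mrpl or Mrps followed by a number, which gave 76 of the 18193 genes measured, each represented by 1 probe set. The study measured total RNA from mouse leukemic cells that carry MLL-AF9, a fusion oncoprotein of the methyltransferase MLL and the elongation-complex protein AF9, on 8 Affymetrix expression arrays. All the cells grew in the same medium with serum, SCF, IL-3 and IL-6, so every group shares the MLL-AF9 fusion and these cytokines. The 4 groups of 2 arrays were cells with a hairpin against luciferase (shLUC) in DMSO, shLUC cells after 6 days in 3 µM EPZ4777, cells with a hairpin against Sirt1 (shSirt1) in DMSO, and shSirt1 cells after 21 days in 3 µM EPZ4777. EPZ4777 inhibits DOT1L, the methyltransferase of lysine 79 of histone H3, and Sirt1 encodes an NAD-dependent deacetylase. The labels call the DMSO arrays controls and give them no time, so time in culture may also differ between a DMSO group and an EPZ4777 group. The titles add a code to each array: the shLUC arrays are A4 and D11, the shSirt1 arrays A1 and A5, and every code has 1 array per agent. Whether arrays of 1 group are separate cultures is not stated, and p-values therefore measure the spread between these arrays alone, which may be technical.

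Mitochondria keep a ribosome of their own, built from RNAs encoded in the mitochondrial genome and from proteins that are encoded in the nucleus, made in the cytosol and imported. It translates the few proteins of the respiratory chain and ATP synthase that the mitochondrial genome encodes. Part of its proteins descend from bacterial ribosomal proteins and part have no bacterial counterpart. Leukemic myeloid cells are known to depend on mitochondrial translation more than normal blood progenitors do. Of the 76 genes, 49 encode large-subunit proteins and 26 small-subunit proteins. Mrps30 and Mrps18a are counted with the large subunit, where their proteins lie despite the names, and Mrps36 stands apart because its protein belongs to the ketoglutarate dehydrogenase complex. Mrpl30 and Mrpl53 were named only on probe sets with 2 symbols and were not analysed here.

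Sirt1 itself checked the hairpin labels. Its log2 intensity was 9.46 in DMSO and 9.44 in EPZ4777 for A4, 9.58 and 9.83 for D11, 8.70 and 8.85 for A1, and 9.54 and 9.73 for A5. Only the A1 arrays lay below the shLUC arrays, so the cells with that hairpin are called cells labelled shSirt1, and any direction between hairpins is a direction between labels. The median log2 intensity of an array lay between 5.21 and 5.27. Summed over 8 stem and progenitor genes, the intensity was 13383.4 to 15367.1 on the DMSO arrays and 11690.6 to 13637.2 on the EPZ4777 arrays, against 227.97 to 467.569 over 9 B, T, NK and erythroid genes on all 8 arrays. Hoxa9 and Myb, at log2 intensities from 12.17 to 12.83, carry most of that sum. Kit lay between 8.58 and 9.71, while Cd34 was low throughout, between 2.43 and 3.39. Meis1, a cofactor of HOX proteins on the same list, fell in shLUC cells from 7.62 and 7.93 to 4.01 and 3.62 (A4 and D11, limma adjusted p = 0.0244). On the DMSO array of A1 the stroma genes Col3a1 (6.92) and Dcn (7.27) stood apart, being at most 3.13 and 4.79 on the other 7 arrays, as did Ppargc1a (6.20 against at most 3.89). Medians over all members that use this control are therefore also given without it or without both A1 arrays. Neutrophil maturation genes were higher in EPZ4777: the summed intensity of 17 such genes was 13210.7 to 41550.4 in DMSO and 82775.6 to 146851 in EPZ4777, and their median log2 difference was 2.03 for shLUC and 2.80 for the cells labelled shSirt1. Of these 17, 4 rose past the test with shLUC and 1 with the Sirt1 hairpin, beside 1.62% and 0.214% of all genes. With a fixed block for the code 7 and 8 did, and the share of all genes that rose with it is not given here.

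Genes of this ribosome are known to share binding motifs of a few transcription factors in their promoters, and the members here moved together. The start-site regions of 7 members are therefore shown first. They comprise Mrpl17, Mrps7, Mrps18b and Mrpl37, which were lower in shLUC cells in EPZ4777, Mrps18a and Mrps18c, the other paralogs of Mrps18b, and Mrps27, which was among the members with the largest differences in both arms. Each is an 80-base stretch of the RefSeq promoter window (GRCm38.p6) read 5′ to 3′ on the gene's strand, with the searched motifs in capitals. All 7 members shown hold a motif before the start, while Mrpl16, Mrps5 and Mrps6, which were also lower, hold none. The stretches were cut where a motif lies, so they do not stand for all members that were lower.
Mrpl17: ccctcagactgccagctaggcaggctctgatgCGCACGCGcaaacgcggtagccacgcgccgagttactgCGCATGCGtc
Mrps7: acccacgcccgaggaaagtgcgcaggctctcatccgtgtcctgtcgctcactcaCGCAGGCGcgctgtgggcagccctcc
Mrps18b: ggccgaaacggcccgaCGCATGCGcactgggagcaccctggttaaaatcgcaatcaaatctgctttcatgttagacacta
Mrpl37: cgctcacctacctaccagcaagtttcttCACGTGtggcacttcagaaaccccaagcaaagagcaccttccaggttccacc
Mrps18a: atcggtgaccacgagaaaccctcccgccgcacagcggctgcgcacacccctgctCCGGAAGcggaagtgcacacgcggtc
Mrps18c: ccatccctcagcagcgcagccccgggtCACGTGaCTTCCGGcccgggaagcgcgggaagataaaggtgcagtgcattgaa
Mrps27: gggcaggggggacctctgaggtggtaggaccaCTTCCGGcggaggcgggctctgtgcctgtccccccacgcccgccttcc

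These stretches lie at chr7:105811088-105811167 on the minus strand (Mrpl17), chr11:115604060-115604139 on the plus strand (Mrps7), chr17:35916601-35916680 on the minus strand (Mrps18b), chr4:107066977-107067056 on the minus strand (Mrpl37), chr17:46110924-46111003 on the plus strand (Mrps18a), chr5:100798569-100798648 on the plus strand (Mrps18c) and chr13:99344706-99344785 on the plus strand (Mrps27). The stretches of Mrpl17, Mrps7, Mrps18a and Mrps27 end at the base before the start site, and the others lie further upstream. CGCANGCG is the core bound by NRF1, a regulator of nuclear genes for mitochondria. CCGGAAG, printed as CTTCCGG where it lies on the other strand, is bound by ETS factors such as GABPA, and CACGTG is the E-box bound by MYC with MAX. In Mrpl17 the NRF1 core begins 48 and 10 bases before the start, in Mrps7 26 bases and in Mrps18b 224 bases before it. In Mrps18c the E-box and the ETS motif begin 163 and 156 bases before the start.

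RefSeq windows of 300 bases, 250 before to 50 after a start, were matched by gene ID for 67 of the 76 members, which gave 73 promoters. Mrpl13, Mrpl15, Mrpl19, Mrpl38, Mrpl4, Mrpl54, Mrps28, Mrps34 and Mrps35 were not matched. Both strands were searched for each string, and none of the strings contains another. CCGGAAG lay in 34.2% of the members' promoters, beside 8.86% of all 32851 promoters and 11.6% of the 21263 promoters of protein-coding genes. The NRF1 core CGCANGCG lay in 26.03%, beside 8.21% and 11.1%. AAGATGGC, the motif of YY1, lay in 16.4%, beside 2.75% and 3.05%. The MYC E-box CACGTG lay in 9.59%, beside 7.15% and 7.84%. Mrpl2 has several overlapping windows that share its E-box. Counted by gene, the E-box lay in 7.46% of the matched members, beside 8.09% of all genes and 8.91% of protein-coding genes. Thus 42 of the 67 matched members (62.7%) held an ETS, NRF1 or YY1 motif in the window, and 5 held an E-box. The share of all genes with an ETS, NRF1 or YY1 motif was not counted, so the 62.7% stands without a background. Of the members that fell past the threshold in shLUC cells, described below, Mrpl16, Mrps5 and Mrps6 held none of the searched motifs. Mrps23 held an ETS motif only after the start, and Mrps28 was not matched. A match describes letters in this window and is no measured site.

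The EPZ4777 difference, described further below, was also set against these motifs. In shLUC cells the median log2 difference was -0.35 for the 25 members with the ETS motif and -0.38 for the 42 without it. It was -0.30 for the 19 members with the NRF1 core and -0.40 for the 48 without it, and -0.40 for the 12 with the YY1 motif and -0.35 for the 55 without it. The 5 members with an E-box had a median of -0.40 and the 62 without it -0.35. These medians carry no test, and every class, with or without a motif, was on the negative side.

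The first comparison asked how the mitochondrial ribosomal protein genes stood after DOT1L had been inhibited for 6 days in shLUC cells. They were lower almost throughout the ribosome: 70 of the 76 had a negative log2 difference between EPZ4777 and DMSO, and the median was -0.37 (quartiles -0.54 and -0.23), which is 77.2% of the DMSO level. Over all 18193 genes the median was -0.0025 and 50.4% were negative, and over the 9096 genes whose mean log2 intensity exceeds the median gene's, a class that takes in all 76 members, the median was -0.051. Of the members, 9 fell past the threshold (limma with Benjamini-Hochberg adjustment over all genes, adjusted p under 0.05) and 0 rose, while 2.36% of all genes fell and 1.62% rose. The 2 EPZ4777 arrays lay below both DMSO arrays for 63 members, where 28.2% of all genes did, and above both for 4, where 24.2% of all genes did. An unadjusted p under 0.05 was reached by 45 members, and by 21.7% of all genes. These arrays measure bulk RNA, in which fewer cells of a type and less RNA per cell cannot be told apart. The rise of the neutrophil genes above accompanied these differences. Of 12 monocyte and macrophage genes, Mrc1 (4.19), C1qb (3.33), Msr1 (1.86), C1qa (1.78) and C1qc (1.68) were among those that rose past the limma test in shLUC cells. In both shLUC codes 2 of the 12 were negative, with Ccr2 at -1.34 (limma adjusted p = 0.0505). Their summed intensity was 5107.66 and 5613.53 in DMSO and 5015.25 and 6310.20 in EPZ4777 (A4 and D11). The part that these changes have in the members' differences was not tested.

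**Figure D1:**
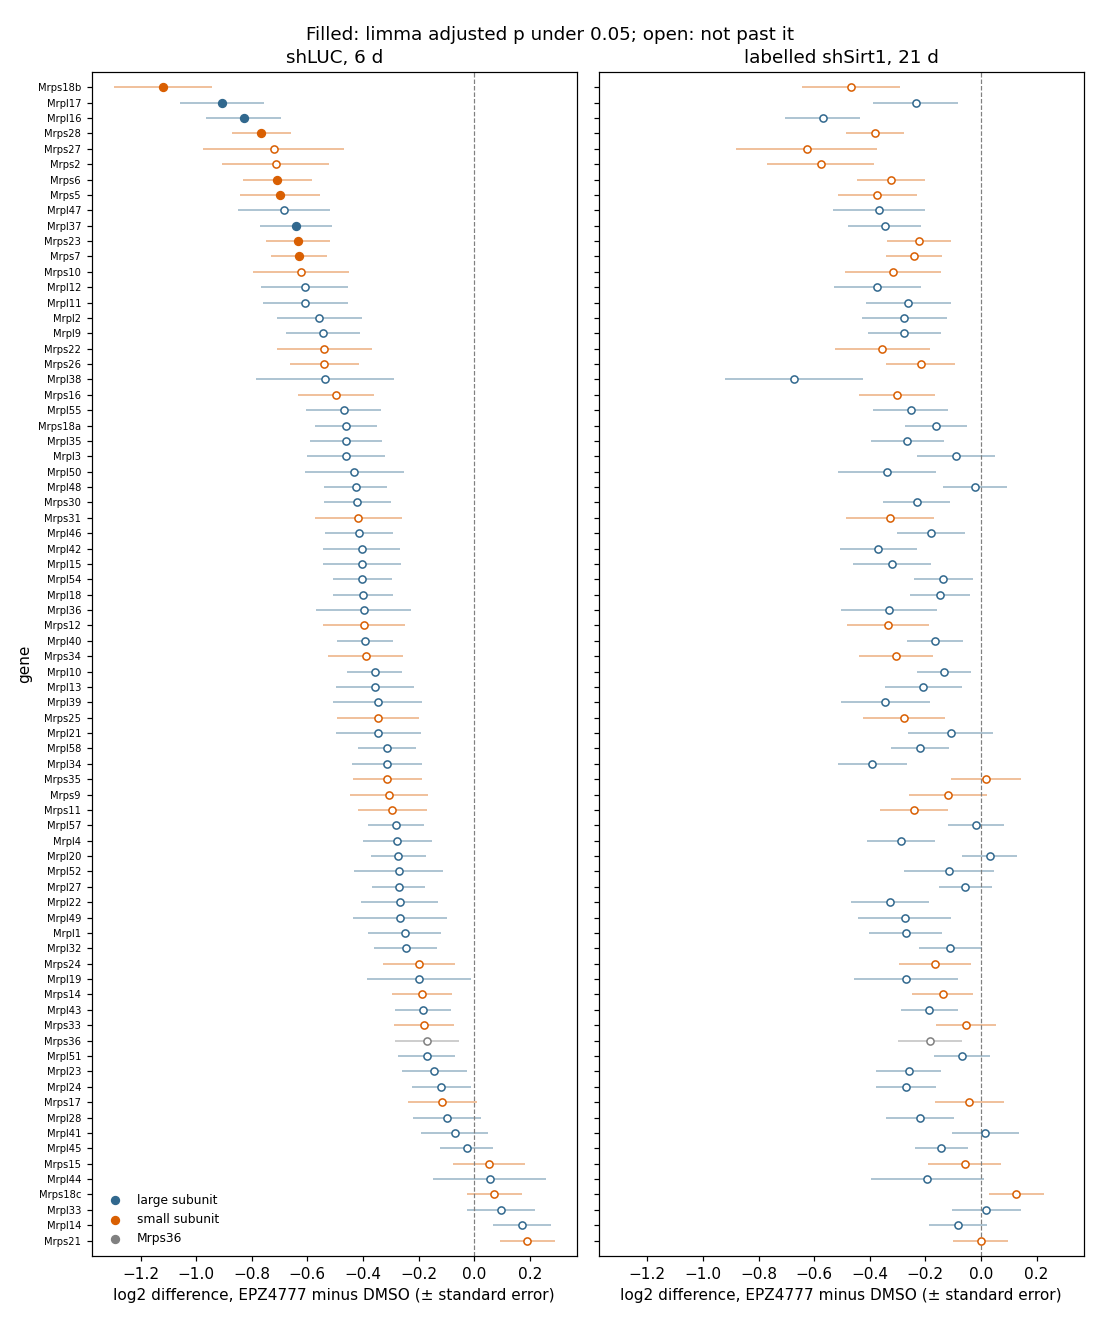
Log2 difference of EPZ4777 minus DMSO for each of the 76 genes with its standard error, for shLUC cells (left) and for those labelled shSirt1 (right), ordered by the left panel and coloured by subunit. Filled points passed the limma test at an adjusted p under 0.05, which 9 genes did on the left and 0 on the right. On the left 70 points lie below 0 and on the right 71.

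Small-subunit genes made up 6 of the 9 that fell. Mrps18b, 1 of 3 paralogs related to a bacterial small-subunit protein, fell most: its log2 intensity was 9.76 (A4) and 9.66 (D11) in DMSO and 8.76 (A4) and 8.43 (D11) in EPZ4777, a log2 difference of -1.12 ± 0.18 (with its standard error, as after every ± below, from 2 arrays in each group; limma adjusted p = 0.0333), or 46.0% of DMSO. Both EPZ4777 arrays were far below both DMSO arrays, which differed from each other by little. Its promoter holds the NRF1 core shown above.

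Mrps28, related to a bacterial protein that holds the messenger RNA, went from 10.50 and 10.58 (A4 and D11, as in all pairs of shLUC values that follow) to 9.79 and 9.76 (-0.77 ± 0.10, adjusted p = 0.0290). The 2 arrays of each group were close and the groups were clearly apart. Mrps6, whose bacterial relative binds beside the protein of the Mrps18 family, went from 8.90 and 8.82 to 8.16 and 8.15 (-0.71 ± 0.12, adjusted p = 0.0377). Mrps5, the relative of a bacterial protein of the messenger RNA entry site, went from 8.93 and 8.88 to 8.35 and 8.07 (-0.70 ± 0.14, adjusted p = 0.0481). For Mrps5 the D11 array was the lower in EPZ4777, and for Mrps6 the EPZ4777 arrays were level.

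Mrps23, which has no bacterial counterpart, went from 9.80 and 9.85 to 9.24 and 9.14 (-0.63 ± 0.11, adjusted p = 0.0396). Mrps7, whose bacterial relative starts the assembly of the head of the small subunit, went from 9.76 and 9.79 to 9.19 and 9.10 (-0.63 ± 0.10, adjusted p = 0.0346). Neither gene's groups overlapped. The next brightest probe sets of Mrps5, Mrps6 and Mrps23 had the same sign, with -0.67 ± 0.12, -0.66 ± 0.14 and -0.53 ± 0.12. Dimmer sets had smaller differences: 3 of Mrps5 had -0.34, -0.31 and -0.12, and 1 of Mrps23 had -0.27.

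The large subunit gave the other 3. Mrpl17, related to a bacterial protein near the exit of the peptide tunnel, went from 11.38 and 11.42 to 10.28 and 10.70 (-0.91 ± 0.15, adjusted p = 0.0355), or 53.3% of DMSO. Its other 2 probe sets, both below the median gene's level, had -0.002 ± 0.23 and -0.05 ± 0.15, so the fall of Mrpl17 rests on 1 probe set. On that set the A4 array was the lower in EPZ4777, unlike for the others that fell. Mrpl16, whose bacterial relative helps to place transfer RNA at the peptidyl transferase centre, went from 10.73 and 10.65 to 10.00 and 9.72 (-0.83 ± 0.14, adjusted p = 0.0346). Mrpl37, which has no bacterial counterpart, went from 8.81 and 8.87 to 8.33 and 8.07 (-0.64 ± 0.13, adjusted p = 0.0473). For both, the D11 array was the lower in EPZ4777 and no DMSO array came near. The 9 genes that fell stood at 46.0% to 64.6% of DMSO. Of these, Mrps18b, Mrps28, Mrps7, Mrpl16 and Mrpl37 had only 1 probe set each, so no second set stands beside their values.

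**Figure D2:**
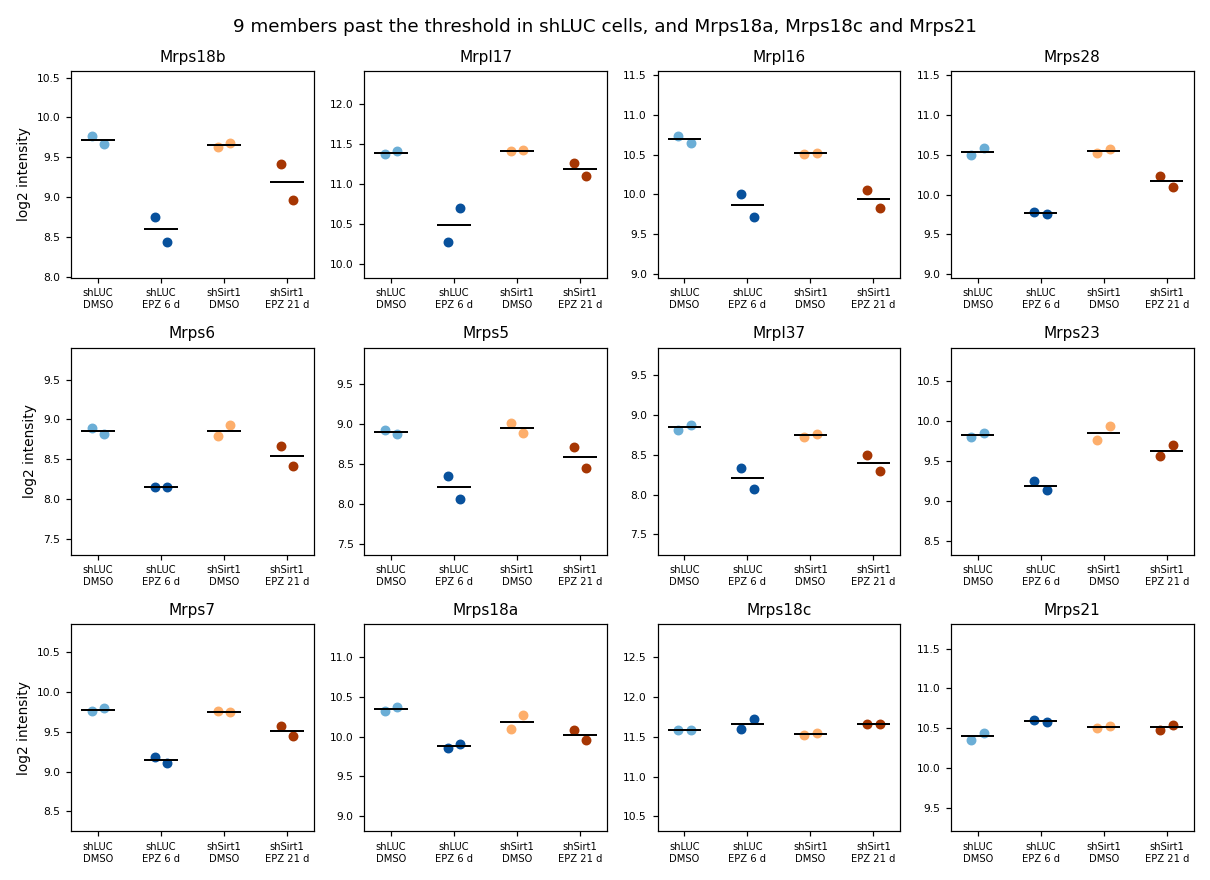
Log2 intensity on each of the 8 arrays (points, the left of each pair being A4 or A1 and the right D11 or A5) with the group mean (bar), for the 9 genes that fell in shLUC cells and for Mrps18a, Mrps18c and Mrps21; the panels' vertical axes span equal ranges. In the panels of the 9 genes both EPZ4777 arrays of each hairpin lie below its DMSO arrays, from 9.76 and 9.66 down to 8.76 and 8.43 for Mrps18b in shLUC cells, while Mrps18c and Mrps21 show no such fall.

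By subunit, 3 of the 49 large-subunit genes fell and 46 were negative, with a median log2 difference of -0.36. Of the 26 small-subunit genes 6 fell and 23 were negative, with a median of -0.41. Genes with a bacterial counterpart (45, of which 6 fell) had a median of -0.36 and those without (30, of which 3 fell) -0.40. The difference therefore ran through both subunits and through genes with and without a bacterial counterpart, and no test sets these classes apart. Mrps18a and Mrps18b are counted among those without, although the paralogs are related to a bacterial protein. Of all genes 2.36% fell. Mrps36, the dehydrogenase protein, had -0.17 ± 0.12 (adjusted p = 0.471).

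Mrpl12, the stalk protein that recruits translation factors and is a classic growth-induced member, was 11.54 and 11.55 in DMSO and 11.12 and 10.75 in EPZ4777. Its difference of -0.61 ± 0.16 missed the threshold (adjusted p = 0.0761). Over the 8 arrays it followed the mean of the other 75 members most closely, with Pearson's r of 0.995 as a description. Mrps30, a large-subunit protein without a bacterial counterpart, had -0.42 ± 0.12 (adjusted p = 0.0982). The 67 members that did not pass ranged from -0.72 to 0.19.

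Of the 3 Mrps18 paralogs, which arose from 1 ancestral gene, Mrps18b fell, as given above. Mrps18a, the large-subunit paralog, was 10.32 and 10.38 in DMSO and 9.86 and 9.91 in EPZ4777 (-0.46 ± 0.11, adjusted p = 0.0666). Mrps18c, the paralog closest to the bacterial protein, was 11.59 and 11.59 in DMSO and 11.60 and 11.72 in EPZ4777 (0.07 ± 0.099, adjusted p = 0.758). Thus the EPZ4777 arrays were below DMSO for Mrps18b and Mrps18a and at or above it for Mrps18c. The difference between paralogs was not tested. Mrps18c kept this place in cells labelled shSirt1, with 11.52 and 11.55 (A1 and A5) in DMSO and 11.66 and 11.66 in EPZ4777.

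In shLUC cells 6 members had a positive difference: Mrps21 0.19, Mrpl14 0.17, Mrpl33 0.10, Mrps18c 0.07, Mrpl44 0.06 and Mrps15 0.05. None of these 6 passed the test. Mrps21 was 10.36 and 10.44 in DMSO and 10.61 and 10.58 in EPZ4777. Its EPZ4777 arrays thus lay above both DMSO arrays, as they did for 24.2% of all genes. On a second, dimmer probe set its difference was 0.50 ± 0.12. Mrpl14, a protein of the interface between the subunits, was 9.07 and 8.97 in DMSO and 9.16 and 9.22 in EPZ4777. Mrpl33 was 11.78 and 11.88 in DMSO and 11.91 and 11.94 in EPZ4777. Against the mean of the other members over the 8 arrays, Pearson's r was -0.84 for Mrps18c, -0.70 for Mrps21, -0.58 for Mrpl14 and -0.42 for Mrpl33. All other members had a positive r, above 0.5 for 69 and above 0.8 for 53 of the 76, with a median of 0.926. For genes at large the median r with the members' mean was 0.0012, and 11.9% exceeded 0.8. These correlations describe 8 arrays in 4 groups that share the drug difference.

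The count of 9 depended on single arrays and on the model. Without either shLUC DMSO array, or without the EPZ4777 array of D11, it was 0, without either DMSO array labelled shSirt1 it was 2, without either EPZ4777 array labelled shSirt1 it was 6, and without the EPZ4777 array of A4 it was 13. The median over the members ranged only from -0.45 to -0.27 over these fits. The share of all genes called in them is not given here, so the changes of the count cannot be read as particular to the members. With a fixed block for the code, 9 members fell, 8 of them the same (Mrpl37 was replaced by Mrpl9), while 3.61% of all genes did. With the code as a random block 28 fell, including all 9, while 7.59% of all genes did.

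**Figure D3:**
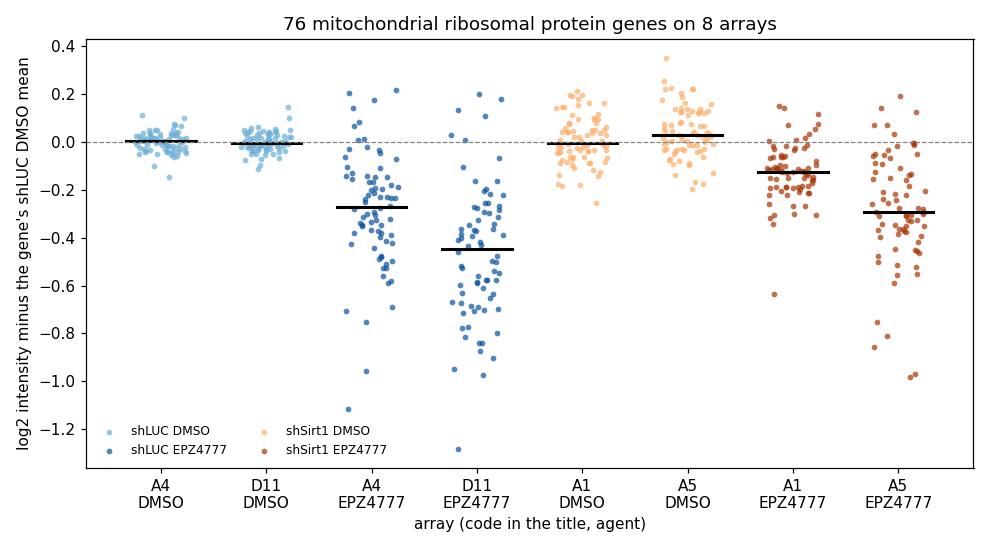
Each gene's log2 intensity on each array minus its mean over the 2 shLUC DMSO arrays (points, 76 per array; the horizontal spread within an array carries no meaning), with the median of the array (bar). The medians are near 0 on the 4 DMSO arrays, -0.27 (A4) and -0.45 (D11) in EPZ4777 in shLUC cells, and -0.12 (A1) and -0.29 (A5) in EPZ4777 in cells labelled shSirt1.

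In cells labelled shSirt1 the same question was asked after 21 days in EPZ4777. The members were again mostly lower, 71 of 76, with a median log2 difference of -0.24 (quartiles -0.32 and -0.13), or 84.8% of DMSO, beside 0.011 over all genes. Of the members 0 passed the limma threshold in either direction, where 0.181% of all genes fell and 0.214% rose. At an unadjusted p under 0.05 there were 14, a level that 15.8% of all genes reached, and with the code as a fixed block 0 passed. With the code as a random block 1 fell, Mrpl16 (adjusted p = 0.04997), while 1.31% of all genes did. Both EPZ4777 arrays lay below both DMSO arrays for 58 members, where 23% of all genes did, and above both for 1, Mrps18c, where 26% of all genes did. All 9 genes that fell in shLUC cells were among the 58.

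Mrpl38, a protein of the central protuberance without a bacterial counterpart, had the largest difference. It was 8.23 and 8.05 in DMSO (A1 and A5, as in the pairs that follow) and 7.86 and 7.08 in EPZ4777, a log2 difference of -0.67 ± 0.25 (adjusted p = 0.273). Its A5 array in EPZ4777 was the lowest of the 4, and its probe set is of a type that can match more than 1 transcript. Mrps27, an RNA-binding protein of the small subunit, was 7.47 and 7.11 in DMSO and 6.999 and 6.33 in EPZ4777 (-0.63 ± 0.25, adjusted p = 0.304). These groups did not overlap, but the DMSO arrays differed as well. Mrps2, the relative of a bacterial small-subunit protein, was 10.20 and 10.09 in DMSO and 9.81 and 9.32 in EPZ4777 (-0.58 ± 0.19, adjusted p = 0.240).

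Mrpl16 was 10.51 and 10.52 in DMSO and 10.06 and 9.84 in EPZ4777 (-0.57 ± 0.14), with the lowest adjusted p of the members, 0.143. Mrps18b was 9.63 and 9.68 in DMSO and 9.41 and 8.96 in EPZ4777 (-0.47 ± 0.18, adjusted p = 0.278). For both the A5 array was the lower. The highest differences were close to 0: Mrps18c 0.13, Mrpl20 0.03, Mrpl33 0.02, Mrps35 0.02 and Mrpl41 0.02. Mrpl12 stood at -0.37 ± 0.16, Mrps30 at -0.23 ± 0.12, Mrps36 at -0.18 ± 0.12 and Mrps18a at -0.16 ± 0.11, with adjusted p-values from 0.315 to 0.513.

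By subunit the medians were -0.23 for the 49 large-subunit and -0.26 for the 26 small-subunit genes. Without both A5 arrays the median over all members was -0.12, without both A1 arrays, the only ones with less Sirt1, it was -0.32, and without the DMSO array of A1 alone -0.25.

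Within each code, which sets 1 EPZ4777 array against 1 DMSO array, the members' median was negative every time. It was -0.25 in A4 and -0.46 in D11, or 83.8% and 72.6% of DMSO, and -0.12 in A1 and -0.32 in A5, or 92.2% and 79.9%. The codes of a hairpin thus differed at least as much as the medians of the arms did. In all 4 codes 59 members (77.6%) were negative, as were 19.6% of all genes. Members low in shLUC cells tended to be low in cells labelled shSirt1 as well: across the 76 members the differences of the arms, which share no array, had a Pearson's r of 0.66 and a Spearman's rho of 0.64, beside 0.65 and 0.52 across all genes, where genes are no independent replicates. Along the codes A4, D11, A1 and A5 the median within-code difference of the 17 neutrophil genes was 1.28, 2.74, 2.42 and 3.20, and that of 12 monocyte and macrophage genes 0.88, 1.31, -0.054 and -0.21. The codes with the larger neutrophil difference in each hairpin, D11 and A5, were those with the lower members. Across hairpins this order did not hold. A1 had a larger neutrophil difference than A4 (2.42 against 1.28) but a members' median nearer 0 (-0.12 against -0.25). A link between the 2 was not tested.

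Whether the EPZ4777 difference itself differed between the arms was tested as an interaction, in which the hairpin and the time in drug cannot be told apart. Of the members 0 passed the limma test, as did 0% of all genes, and 6 had an unadjusted p under 0.05, as did 6.71% of all genes. The fixed and the random block gave 0 as well. The median of the difference, labelled shSirt1 minus shLUC, was 0.14, and 58 of 76 members were the more negative in shLUC cells. Mrpl17 had the largest value, 0.67 ± 0.22 (adjusted p = 0.638), since in cells labelled shSirt1 it went only from 11.42 and 11.42 to 11.27 and 11.10. Mrps18b followed with 0.65 ± 0.25, then Mrps23 with 0.41 ± 0.16, Mrpl48 with 0.41 ± 0.16 and Mrps7 with 0.39 ± 0.14. At the other end stood Mrpl14 (-0.25), Mrpl44 (-0.25), Mrps21 (-0.19), Mrpl24 (-0.15) and Mrpl38 (-0.13). Mrpl14, above DMSO in both shLUC codes, was 8.996 and 9.09 in DMSO and 8.91 and 9.01 in EPZ4777 in A1 and A5, below DMSO within both codes. Mrps18a had 0.30, Mrpl12 0.24, Mrps30 0.19, Mrps18c 0.05 and Mrps36 -0.01. The median was 0.037 without both A1 arrays and 0.25 without both A5 arrays. Leaving out a single array it was 0.051 without the EPZ4777 array of D11, 0.072 without that of A1, 0.22 without that of A5 and 0.26 without that of A4.

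Between the hairpins in DMSO the members were close to level. The median log2 difference, labelled shSirt1 minus shLUC, was 0.025, beside -0.013 over all genes. It was 0.028 without the DMSO array of A1 and -0.0025 without that of A5. Of the members 0 passed the limma test, as did 0% of all genes, 0 had an unadjusted p under 0.05, where 5.41% of all genes did, and the random block gave 0 as well. The extremes were Mrps15 0.22, Mrps16 0.19, Mrpl34 0.18, Mrpl23 0.16 and Mrpl24 0.14 on the higher side and Mrpl16 -0.18, Mrps18a -0.17, Mrpl41 -0.13, Mrpl20 -0.13 and Mrpl51 -0.12 on the lower. Mrps30 had 0.10, Mrps18b -0.06, Mrps18c -0.05, Mrps36 -0.03 and Mrpl12 0.01. Among the DMSO arrays of a group the members varied little, with a median SD of 0.039 for shLUC and 0.057 for cells labelled shSirt1, beside 0.15 and 0.11 among the EPZ4777 arrays.

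In EPZ4777, cells labelled shSirt1 after 21 days had higher values than shLUC cells after 6 days for 64 of 76 members, with a median log2 difference of 0.16, beside 0.0071 over all genes. Of the members 0 passed the limma test, where 0.308% of all genes did, 15 had an unadjusted p under 0.05, where 13.3% of all genes did, and the random block gave 0. Macrophage genes moved with this contrast: 5 of the 12 monocyte and macrophage genes were lower past the limma test in cells labelled shSirt1, C1qb (-3.77, adjusted p = 0.0143), Msr1 (-3.24), C1qa (-2.07), Mmp12 (-3.84) and Ccr2 (-2.70), and the median of the 12 was -2.33. Their summed intensity was 865.079 and 1010.70 (A1 and A5) against 5015.25 and 6310.20 (A4 and D11). In DMSO it was 1985.12 and 3082.84 (A1 and A5) against 5107.66 and 5613.53 (A4 and D11), so it was lower under the Sirt1 label without drug as well. The part of these genes in the members' difference was not tested. The lowest adjusted p of the members was 0.124, for Mrpl17 (0.70 ± 0.15). Mrps18b (0.59 ± 0.18), Mrps23 (0.44 ± 0.11), Mrps28 (0.39 ± 0.10) and Mrps35 (0.39 ± 0.13) came next. The lowest members were Mrpl14 (-0.23), Mrpl44 (-0.19), Mrpl43 (-0.10), Mrps21 (-0.08) and Mrpl33 (-0.07). Mrps30 had 0.29, Mrpl12 0.24, Mrps18a 0.13, Mrps36 -0.04 and Mrps18c 0.0004. The median was 0.060 without the EPZ4777 array of D11, 0.096 without that of A1 and 0.27 without that of A4.

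Other genes of mitochondrial translation were lower in shLUC cells alongside the ribosomal proteins. The 4 mitoribosome proteins measured under other names, of 7 listed, were all negative: Ptcd3 -0.66, Gadd45gip1 -0.51, Dap3 -0.40 and Chchd1 -0.35. Of these 0 passed the limma test and all 4 had an unadjusted p under 0.05, as did 21.7% of all genes. Of 14 mitochondrial translation factors all were negative, with a median of -0.51, and 1 fell, beside 2.36% of all genes. This was Gfm1, the elongation factor that moves the ribosome along the messenger RNA. Gfm1 was 9.72 and 9.74 in DMSO and 8.89 and 8.94 in EPZ4777 (-0.81 ± 0.098, adjusted p = 0.0250), and in cells labelled shSirt1 it was 9.57 and 9.57 in DMSO and 9.56 and 9.44 in EPZ4777. Its fall was thus seen in the shLUC arm, and the difference between arms was not past the test.

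Of 24 genes for assembly of the mitochondrial ribosome and modification of its RNA 1 fell, the GTPase gene Mtg1 (-0.80 ± 0.16, adjusted p = 0.0469), and the median was -0.24 with 18 negative. Fastkd2, which binds mitochondrial RNA, had -0.87 ± 0.19 (adjusted p = 0.0549) and passed with a fixed block for the code (adjusted p = 0.0414). Among 16 mitochondrial aminoacyl-tRNA synthetases, which charge the organelle's transfer RNAs, 2 fell, Wars2 for tryptophan (-0.61 ± 0.11) and Iars2 for isoleucine (-0.53 ± 0.11, lost with the fixed block, adjusted p = 0.0554), and the median was -0.39 with 15 negative. Of 11 genes for transcription and replication of mitochondrial DNA 2 fell, the topoisomerase gene Top1mt (-1.16 ± 0.18) and the transcription elongation factor gene Tefm (-0.71 ± 0.13), and the median was -0.28 with 9 negative. In each of these lists 0 rose. Of all genes 2.36% fell and 1.62% rose past the same threshold, so 1 or 2 calls in lists of this size say little about a list. In cells labelled shSirt1 0 genes of these 5 lists passed the limma test. An unadjusted p under 0.05, which 15.8% of all genes reached, was reached by 1 of the proteins under other names and 4 factors. It was also reached by 5 assembly genes, 5 synthetases and 3 genes for mitochondrial DNA. The medians of the lists were -0.27 for the proteins under other names, -0.28 for the factors, -0.22 for assembly, -0.24 for the synthetases and -0.29 for mitochondrial DNA.

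**Figure D4:**
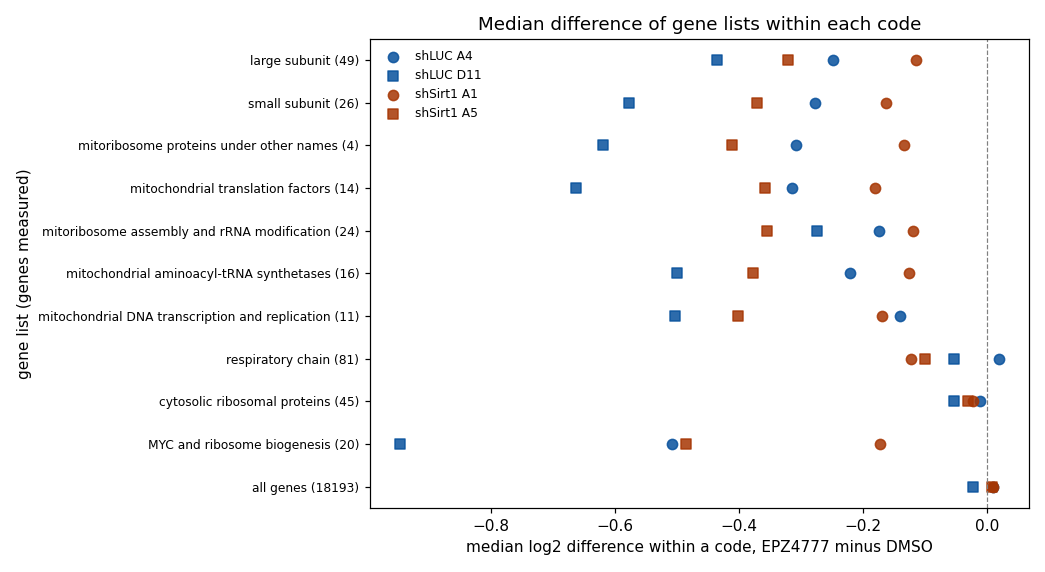
Median log2 difference of EPZ4777 minus DMSO within each code (A4 and D11 for shLUC, A1 and A5 for cells labelled shSirt1) for the 2 subunits, related gene lists and all genes, with the number of genes measured in brackets. The mitochondrial translation lists lie left of 0 in every code, as does the list of MYC and ribosome biogenesis genes. The cytosolic ribosomal proteins and all genes lie between -0.053 and 0.010, and the respiratory chain between -0.12 (A1) and 0.019 (A4).

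The cytosolic ribosome and the respiratory chain, which receives the products of mitochondrial translation, had medians nearer 0 in both arms, though not in every code. Of 45 cytosolic ribosomal protein genes the median was -0.037 in shLUC cells and 2 fell, beside 2.36% of all genes: Rpl12 (-0.996 ± 0.20) and Rps25 (-0.54 ± 0.11). Both lost the call with a fixed block for the code (adjusted p = 0.0569 and 0.0528). Of 81 respiratory chain genes 0 passed the limma test, with 8 at an unadjusted p under 0.05, where 21.7% of all genes were, and the median was -0.030. In cells labelled shSirt1 the medians were -0.011 and -0.12, with 0 past the limma test in either list. At an unadjusted p under 0.05 there were 2 and 8, where 15.8% of all genes were. Within the codes the respiratory chain median was 0.019 in A4, -0.053 in D11, -0.12 in A1 and -0.10 in A5, so in A1, where 68 of the 81 genes were negative, it was as low as the members' median of -0.12. The gap between these lists and the members was not tested. Genes of nucleolar ribosome biogenesis and other MYC targets were lower still. In shLUC cells 8 of 20 fell, beside 2.36% of all genes, all 20 were negative and the median was -0.71. Odc1, the rate-limiting enzyme of polyamine synthesis, had -1.09 ± 0.16, Wdr12 -0.97 ± 0.19, Rrp12 -0.90 ± 0.14 and Nolc1 -0.89 ± 0.18. In cells labelled shSirt1 0 of these 20 passed the limma test, with 6 at an unadjusted p under 0.05, beside 15.8% of all genes, and the median was -0.35.

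Regulators known to act on genes for mitochondria and growth did not move in 1 direction. Of 13 measured 1 rose in shLUC cells and 0 fell, where 1.62% of all genes rose and 2.36% fell, and the median was 0.12. The 1 was Mxd1, which competes with MYC for MAX: its log2 intensity was 7.79 and 7.80 in DMSO and 9.15 and 10.36 in EPZ4777 (1.96 ± 0.40, adjusted p = 0.0473). In cells labelled shSirt1 it was 7.18 and 7.40 in DMSO and 9.54 and 10.32 in EPZ4777 (2.64 ± 0.40, adjusted p = 0.0636), and past the threshold with the code as a fixed block (adjusted p = 0.0289). The EPZ4777 arrays of Mxd1 were thus well above DMSO in all 4 codes. Myc was 10.62 and 10.57 in DMSO and 11.25 and 10.81 in EPZ4777 in shLUC cells (0.43 ± 0.17, adjusted p = 0.186), and -0.03 ± 0.17 in cells labelled shSirt1. Over the 8 arrays Myc had a Pearson's r of -0.40 with the members' mean. Nrf1, whose motif is marked above, was 7.60 and 7.47 in DMSO and 7.03 and 7.07 in EPZ4777 (-0.49 ± 0.11, adjusted p = 0.0645), and 0.01 ± 0.11 in cells labelled shSirt1. Gabpa had -0.01 ± 0.13 and -0.004 ± 0.13 in the respective arms. Gabpb1, which encodes the partner subunit of GABPA, was 7.73 and 7.82 in DMSO and 7.03 and 7.29 in EPZ4777 in shLUC cells (-0.62 ± 0.13, adjusted p = 0.0512), and fell past the threshold with the fixed block (adjusted p = 0.0375). Its difference in cells labelled shSirt1 was -0.33 ± 0.13 (adjusted p = 0.291). Mycn, a relative of Myc, had 0.45 ± 0.29 with shLUC and 0.99 ± 0.29 with the Sirt1 label (adjusted p = 0.200), where it passed with the fixed block (adjusted p = 0.0385).

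The probe sets limit some of these values. The 76 genes had 156 probe sets in all, and 42 genes had more than 1. Among the probe sets not chosen, 45 had a mean above the median gene's, and of these 42 had the sign of the chosen one in shLUC cells, with a median of -0.34. The 35 dimmer ones had that sign in 22 cases and a median of -0.061. Within 15 genes the probe sets differed in sign in shLUC cells and within 12 in cells labelled shSirt1. Of the chosen probe sets 8, those of Mrpl15, Mrpl19, Mrpl37, Mrpl38, Mrpl9, Mrps12, Mrps24 and Mrps6, carry a suffix for probes that can match more than 1 transcript, so their values are less certain.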

How the data were processed

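The authors deposited intensity values made with RMA, as stated per the submitters' processing notes with no version (not stated). RMA corrects background, normalizes between arrays, summarises probes and compresses differences of dim genes. The values reach 24500, so they were read as linear, and their log2 was used without further normalization. Of 45101 probe sets 64 were controls, 34945 had 1 symbol, 932 several and 9160 no entry in the platform annotation. The probe set with 1 symbol and the highest mean stood for a gene.

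The test was limma 3.58.1 (R 4.3.3, data.table version 1.17.8), fitted to 4 group means over all 8 arrays with 4 residual degrees of freedom (2 with the code as fixed block). It covered 5 two-sided comparisons, adjusted by Benjamini-Hochberg over 18193 genes at 0.05, and was tested on simulated data. With 2 arrays against 2 an exact test reaches p = 0.333 at the lowest, and the number of arrays limits the precision. What the codes mean is not given. Between DMSO and EPZ4777 a code's deviations correlated at 0.293 (shLUC) and 0.378 (shSirt1).

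Members, lists and tests were chosen with earlier results of these data known. Named are the members past the threshold, or, where fewer than 6 pass, the 5 lowest and 5 highest, with Mrpl12, Mrps18a, Mrps18b, Mrps18c, Mrps30 and Mrps36 throughout, passing list genes, and Myc, Nrf1 and Gabpa. Mrps21, Mrpl14, Mrpl33, Mrpl44 and Mrps15 in shLUC cells, the mitoribosome proteins under other names and Mrps27 among the promoters were named after their values were seen. Alternatives were the mean of probe sets, leaving out dim genes, quantile normalization, median centring, trended or robust variance, fewer arrays in the fit, code blocks, a threshold of 0.1, each array left out and, after seeing Sirt1, both arrays of A1 or A5 left out. A list of 8 stroma genes summed to 615.022 to 1273.48 in DMSO, the highest being D11 through Fn1, and 336.885 to 552.03 in EPZ4777. Fastkd2, Gabpb1 and Mycn were named because a block changed their call.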

Additional observations from a re-analysis of the deposited data

How the results depend on the processing

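The count of 9 members lower in shLUC cells was 20 among genes above the median level, 23 after median centring of the arrays, 27 at an adjusted p under 0.1, 28 with the code as a random block, 3 with only the arrays compared, 3 without both A1 and 3 without both A5 arrays, and 0 to 13 with 1 array left out. It was 7 to 11 with the mean of probe sets, quantile normalization, trended or robust variance and the fixed block. In cells labelled shSirt1 the count of 0 became 1 with the random block. Median centring moved the median of all genes in shLUC cells by -0.089 and the lower share of all calls from 59.3% to 78.7%, with 23 members lower and 0 higher. Among all genes it moved the number lower past the threshold from 429 to 1037. Counts of members without a share of all genes for the same setting cannot be read as particular to the members. The members' median in shLUC cells was -0.45 to -0.27 with 1 array left out, and in cells labelled shSirt1 -0.30 to -0.15, and -0.12 without both A5 arrays. The median difference between the arms was 0.051 to 0.26 with 1 array left out, 0.037 without both A1 and 0.25 without both A5 arrays, and the median between hairpins in EPZ4777 0.060 to 0.27. Among the members the fixed code block changed 2 calls: Mrpl37 was lost (adjusted p = 0.0516) and Mrpl9 gained. Among the listed genes some of its changes stand beside them in the results. Nkg7 in both arms and Meis1 in cells labelled shSirt1 also passed. So did C1qb in the difference between the arms (limma adjusted p = 0.0244, and 0.202 without the block). Of the values of named members under the alternatives, 1295 kept direction and side of the threshold, 12 passed newly, 72 no longer passed and 36 changed sign, all of these from values that had not passed, and the cause was not tested.

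The changes of sign were these. With median centring, Mrps18c in shLUC cells was -0.016, Mrps36 between the arms 0.069 and between hairpins in EPZ4777 0.030, Mrpl12 between hairpins in DMSO -0.00140, and Mrpl33 between hairpins in EPZ4777 0.0029. With quantile normalization Mrps18c between hairpins in EPZ4777 was -0.019. With the mean of probe sets Mrpl33 in cells labelled shSirt1 was -0.026, Mrpl38 between the arms 0.12 and Mrpl51 between hairpins in DMSO 0.038. Without both A1 arrays, in cells labelled shSirt1, Mrpl20 was -0.049, Mrpl41 -0.094 and Mrps35 -0.078, and Mrps18c between hairpins in EPZ4777 was -0.000792. Without both A5 arrays Mrpl33 in cells labelled shSirt1 was -0.094, Mrpl38 between the arms 0.16 and Mrps36 0.016, Mrpl12 between hairpins in DMSO -0.0084 and Mrpl44 between hairpins in EPZ4777 0.062. With 1 array left out, in cells labelled shSirt1, Mrpl20 ranged from -0.013 to 0.074, Mrpl33 from -0.12 to 0.16, Mrpl41 from -0.090 to 0.12 and Mrps35 from -0.12 to 0.16. Between the arms Mrpl38 ranged from -0.52 to 0.25, Mrps18c from -0.0088 to 0.12 and Mrps36 from -0.14 to 0.11. Between hairpins Mrpl12 ranged from -0.0084 to 0.021 in DMSO, and in EPZ4777 Mrpl44 from -0.43 to 0.062, Mrps18c from -0.062 to 0.063 and Mrps36 from -0.17 to 0.082. The 2 arrays per group limit all of these. A dim probe set can understate a difference, though for some members a dimmer set had the larger one.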
